A study of Mus musculus with 12 samples.

Results

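The genes Runx1, Runx2 and Runx3 were followed as methylated loci in lineage-negative bone marrow progenitors of Dnmt1 mutant mice and of wild-type mice, all on the BALB/c strain. Lineage-negative cells are marrow cells depleted of those carrying markers of mature blood cells, so stem and progenitor cells are enriched. The loci comprised every region that the authors listed as hypomethylated for a Runx gene at a distance of 5000 bp or less, and every tabulated candidate region lying between the first and the last such region of each gene. This gave 77 of 107115 candidate regions, of which 38 lay at Runx1, 10 at Runx2 and 29 at Runx3. The authors' list held 21 of them, 10 at Runx1, 3 at Runx2 and 8 at Runx3, and the other 56 were tabulated but not listed. The labels write the mutant genotype as dnmt1-/-, whereas the series text describes a specific mutation modelled on hypomorphic fish alleles. Dnmt1 is the enzyme that copies CpG methylation onto the new strand after replication. The 12 samples were 6 per genotype, made from 3 replicate numbers with a bisulfite kit and an enzymatic kit, and the table held 1 column per genotype and number, so n = 3 against 3. Age and sex of the mice are not stated, nor is it stated whether replicates are separate animals, and p-values therefore measure only the spread between these columns. Methylation does not measure the expression of marker genes, so the labelled cell type could not be checked.

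RUNX proteins are transcription factors that bind DNA through the Runt domain, together with the partner protein CBFβ, and activate or repress their targets. Runx1 is required for the emergence of blood stem cells and for megakaryocyte and lymphoid development, Runx2 is the master regulator of osteoblast differentiation, and Runx3 acts in cytotoxic T cells and natural killer cells. In mammals each gene is transcribed from a distal and a proximal promoter, which give proteins with different amino termini. CpG methylation at such promoters and at the enhancers in the long introns is generally low where the element is in use.

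The RefSeq starts of the mm10 assembly (GRCm38.p6) show how unlike these promoters are. RefSeq's table gave a distal and a proximal start for Runx1 (chromosome 16, minus strand, 92826074 and 92697329) and Runx3 (chromosome 4, plus strand, 135120645 and 135152545), and a single distal start for Runx2 (chromosome 17, minus strand, 44814627). In windows of 300 bases, 250 before to 50 after the start, the distal windows held 2 CpGs at Runx1, 2 at Runx2 and 8 at Runx3. The proximal windows held 35 at Runx1 and 45 at Runx3, counts reached by 6.95% and 1.93% of the 32851 promoter windows in the table, whose median was 7. The longest stretch that the distal windows of all 3 genes had in common was 18 letters, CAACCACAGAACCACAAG. It was found, on either strand, in 4 windows of the table, the remaining one being that of Gm16225, a noncoding RNA gene that neighbours the distal start of Runx3. It contains the RUNX recognition motif TGTGGT in tandem, read on the opposite strand. Searched on both strands, this motif was found in 16.8% of all windows, and at least 2 matches were found in 1.81%. The motif matches are shown in capitals in 30 bases of the gene's strand, because they are the sequence that the distal promoters have in common.
Runx1: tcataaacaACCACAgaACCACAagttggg
Runx2: tcacaaacaACCACAgaACCACAagtgcgg
Runx3: ggtccctcaACCACAgaACCACAaggccag
The stretch began 26 bp downstream of the start in Runx1, 21 bp downstream in Runx2 and 136 bp upstream in Runx3. Candidate regions came within 1 kb of a start at Runx3 alone among the 3 genes, so the 250 bases before each Runx3 start are given with every CpG in capitals (distal, chr4:135120395-135120644; proximal, chr4:135152295-135152544; plus strand).
Runx3 distal: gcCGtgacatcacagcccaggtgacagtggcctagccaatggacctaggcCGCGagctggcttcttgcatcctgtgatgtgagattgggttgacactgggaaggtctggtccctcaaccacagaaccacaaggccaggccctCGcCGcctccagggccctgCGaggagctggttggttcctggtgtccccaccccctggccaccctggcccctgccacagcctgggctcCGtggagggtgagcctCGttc
Runx3 proximal: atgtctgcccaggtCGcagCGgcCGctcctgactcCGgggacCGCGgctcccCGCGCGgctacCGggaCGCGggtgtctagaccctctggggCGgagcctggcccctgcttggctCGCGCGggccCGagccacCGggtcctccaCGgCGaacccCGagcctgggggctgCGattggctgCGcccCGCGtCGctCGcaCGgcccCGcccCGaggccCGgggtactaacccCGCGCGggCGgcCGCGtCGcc
The distal stretch held 8 CpGs and the proximal one 38. A candidate region of 51 bases with 10 CpGs occupied letters 15 to 65 of the proximal stretch.

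Methylation was lower in the mutant in nearly all candidate regions of the Runx loci. Those inside the genes covered 12.8% of the Runx1 span, 2.22% of the Runx2 span and 43.7% of the Runx3 span. Between candidate regions no level is tabulated. The limma test on the level in percent, adjusted over all 107115 candidate regions by the Benjamini-Hochberg method, called 73 of 77 Runx regions lower, 38 of 38 at Runx1, 9 of 10 at Runx2 and 26 of 29 at Runx3. The threshold was an adjusted p of 0.05, and 93.5% of all candidate regions were called lower under it, so the Runx share was close to the background. The candidate regions come from the authors' comparison of both genotypes, so the calls restate in part how they were found. The same 73 Runx regions had every mutant replicate below every wild-type replicate, against 94.3% over the table, and 0 had every mutant replicate above, against 0.0952%. A loss of at least 20 points was also met by 22 of the 77, against 34.4% of the table. limma called 0 Runx regions higher, against 0.0485% of the table, and 0 passed as higher at an unadjusted p of 0.05. The 4 regions not called lower were 1 at Runx2 and 3 at the proximal start of Runx3. The list held 27.3% of the Runx regions and 33.1% of all candidate regions. The median difference, mutant minus wild type, was -17.1 percentage points over the 77 Runx regions and -16.6 points over the table.

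**Figure D1:**
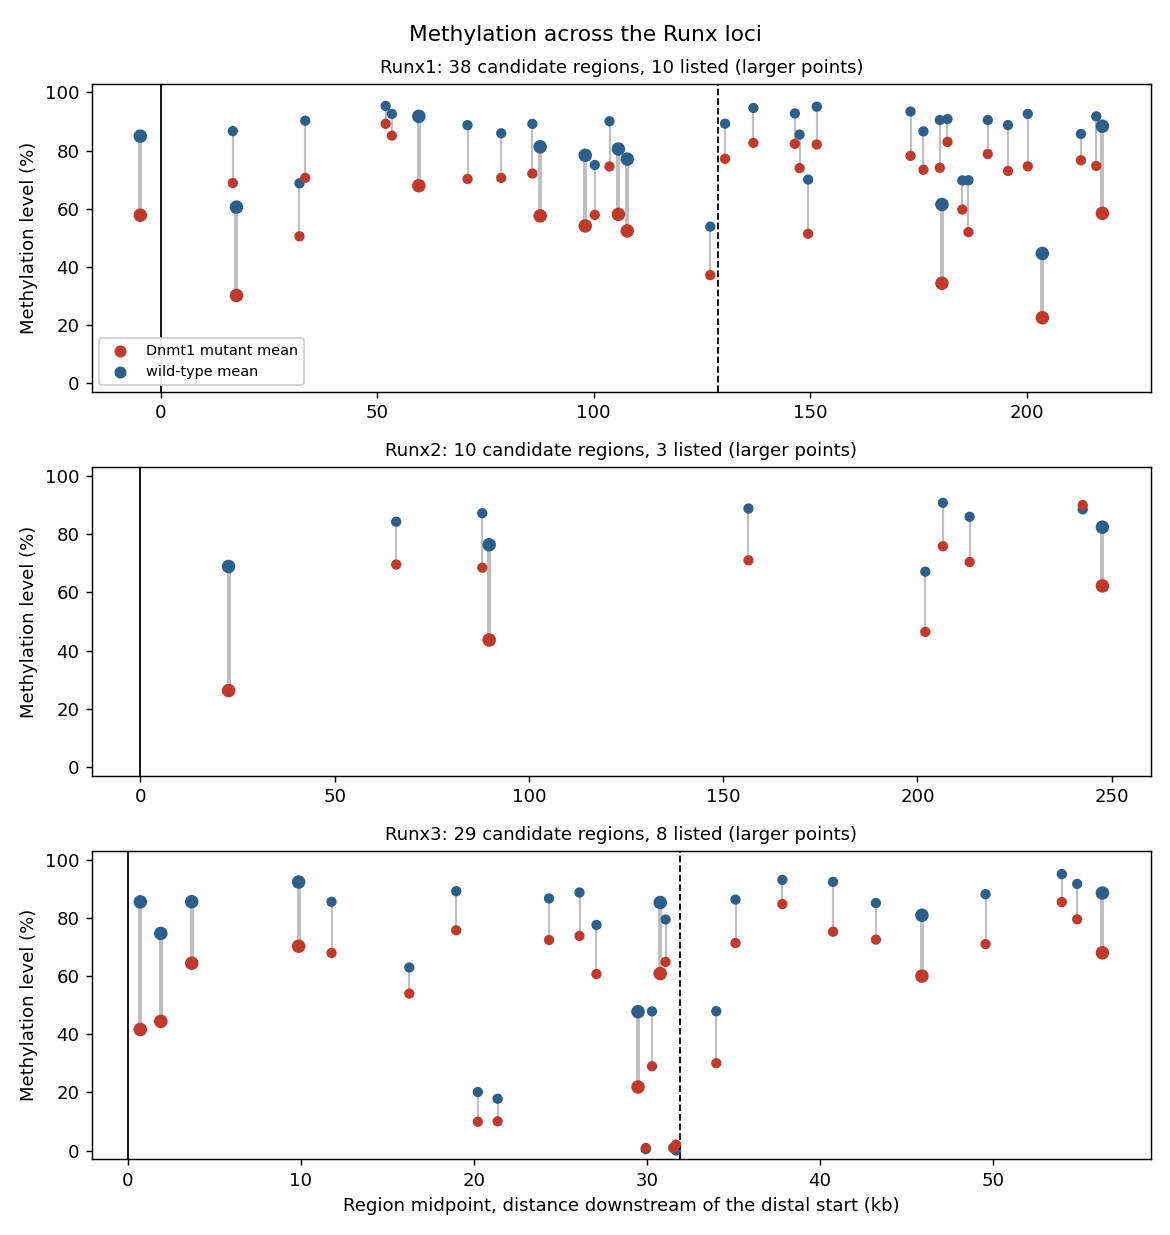
Mean methylation level (%) of every candidate region of the 3 loci against the distance of its midpoint from the distal start (kb, in the direction of transcription). Red points are Dnmt1 mutant means and blue points wild-type means (n = 3 each), joined by a grey line; larger points are the 21 listed regions, the solid line marks the distal and the dashed line the proximal start. The mutant lies below the wild type in nearly every region, and the levels near 0 stand at the proximal start of Runx3.

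Among listed regions the Runx loci resembled the list in CpG content. The 21 regions held 295 CpGs by the authors' count, with a median of 12 per region, which was also the median of the 35439 listed regions. The median density was 1.69 CpGs per 100 bp at Runx regions and 1.78 over the list. In the authors' deposited table, 5 of the 21 had a metilene q-value under 0.05 (23.8%, against 23.3% of the list): 1 at Runx1, 1 at Runx2 and 3 at Runx3. The outermost listed region that the distance limit let in lay 4149 bp upstream of Runx1. The nearest ones left out were 15209 bp from Runx3, 16645 bp from Runx1 and 32434 bp from Runx2, with mutant minus wild-type differences of -26.9, -23.9 and -25.0 points.

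At Runx1, the lower regions were spread along the gene of 224.6 kb and reached its upstream flank. The largest difference lay 17235 bp downstream of the distal start, inside the gene span (chromosome 16, 92808279 to 92808839, 10 CpGs). Mutant replicates had levels of 28.0%, 36.9% and 25.6% there, against 61.7%, 56.8% and 63.1% in wild-type replicates. No replicates overlapped between groups, and the difference was -30.4 points (standard error 3.32, limma adjusted p = 6.61e-05). Next in size was the listed region farthest into the gene, 217151 bp from the distal start (chromosome 16, 92608208 to 92608923, 12 CpGs), at 58.4% ± 5.6 in mutant columns and 88.4% ± 3.70 in wild-type columns (SD, n = 3 each). It was the Runx1 region with a metilene q-value under 0.05 in the authors' deposited table (q = 0.0056). The region upstream of the gene (chromosome 16, 92830297 to 92831263, 12 CpGs) was at 57.8% ± 3.96 in mutant columns and 84.9% ± 0.501 in wild-type columns (SD, n = 3 each), and it lay 4223 bp upstream of the distal start.

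CpG counts are tabulated for listed regions alone. Among the 10 listed at Runx1, the one with the most CpGs, 24, lay between the starts, 20263 bp upstream of the proximal one (chromosome 16, 92717592 to 92719009). Its mutant replicates were close together at 50.5%, 53.3% and 53.3%, and wild-type replicates had 77.0%, 76.5% and 77.7%. The difference was -24.7 points (standard error 2.04, limma adjusted p = 1.93e-05). Of the 17 candidate regions between the starts 6 were listed, with a median difference of -18.2 points over the 17. Downstream of the proximal start, 3 of 20 were listed and the median was -14.2 points. Over the whole table, 33.1% of candidate regions were listed and the median was -16.6 points. These parts of Runx1 were not compared by a test. Wild-type levels were 40 to 60% in 2 of the 38 Runx1 regions, 60 to 80% in 9 and 80% or more in 27. A listed region 74642 bp downstream of the proximal start (chromosome 16, 92622183 to 92622687) had 22.5% ± 2.85 in mutant columns and 44.6% ± 2.39 in wild-type columns (SD, n = 3 each). Another, 51460 bp downstream of that start (92645381 to 92645869), had 34.3% ± 2.16 in mutant columns and 61.4% ± 2.04 in wild-type columns.

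No candidate region overlapped the 300-base window of either Runx1 start. The nearest to the proximal start lay 1345 bp downstream (chromosome 16, 92695433 to 92695984), at 77.2% ± 1.88 in mutant columns and 89.2% ± 0.525 in wild-type columns (SD, n = 3 each). On the upstream side, 1557 bp away (92698886 to 92699372), the level was 37.1% ± 3.19 in mutant columns and 53.8% ± 0.641 in wild-type columns. Both were called lower, with differences of -12.1 and -16.7 points, and neither was listed. The smallest Runx1 difference belonged to a highly methylated region 51514 bp downstream of the distal start (chromosome 16, 92773652 to 92774560). Mutant replicates had 85.7%, 90.3% and 91.6%, and wild-type replicates 95.4%, 93.8% and 96.8%, so the groups were separate but near each other. The difference was -6.12 points (standard error 2.35, limma adjusted p = 0.0326), and the call was lost without mutant replicate 1 (adjusted p = 0.0769), without wild-type replicate 1 (adjusted p = 0.0755) and without wild-type replicate 3 (adjusted p = 0.105). The calls of 2 further Runx1 regions with small losses, -7.5 points (92772323 to 92773024) and -7.88 points (92644088 to 92644601), were also lost when single replicates of either genotype were left out. Mutant replicates spread most, from 66.2% through 73.0% to 83.0%, in a region 51039 bp downstream of the proximal start (chromosome 16, 92645957 to 92646290), where wild-type replicates had 89.0%, 88.7% and 93.8%. Its difference was -16.4 points (standard error 4.02, limma adjusted p = 0.00405).

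At Runx2, regions were sparse, and the listed differences ran from -42.7 to -20.2 points, the latter being the smallest loss among the listed Runx regions. The gene spans 318.8 kb and held 3 listed regions, 0.941 per 100 kb. Runx1 had 4.45 per 100 kb of its span, counting the listed region upstream of the gene, and Runx3 had 13.95. As a share of the candidate regions, the listed ones made up 26.3% at Runx1, 30% at Runx2 and 27.6% at Runx3. The largest loss at Runx2 lay 22389 bp downstream of the distal start (chromosome 17, 44791566 to 44792238, 10 CpGs). It was inside the spans of both Runx2 and Supt3, a gene that encodes a subunit of transcriptional coactivator complexes. Mutant replicates had 31.4%, 31.2% and 16.0%, and wild-type replicates 74.8%, 65.4% and 66.4%. Mutant replicate 3 was well below the other two, and no replicates overlapped between groups. The difference was -42.7 points (standard error 4.49, limma adjusted p = 5.54e-05), and the mutant retained 38.1% of the wild-type level.

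A region of 23 CpGs lay 89281 bp downstream of the distal start of Runx2 (chromosome 17, 44724352 to 44725346). Its levels were 50.5%, 41.5% and 39.0% in mutant replicates and 79.95%, 76.1% and 73.0% in wild-type replicates. No replicates overlapped between groups, and the difference was -32.8 points (standard error 3.36, limma adjusted p = 4.98e-05). The third listed region (chromosome 17, 44566328 to 44567756, 12 CpGs) had 62.2% ± 5.19 in mutant columns and 82.4% ± 1.23 in wild-type columns (SD, n = 3 each). A region 201618 bp downstream of the start (chromosome 17, 44612217 to 44613009) was not listed, although its column means differed by -20.7 points (standard error 4.34, limma adjusted p = 0.00180). Mutant replicates had 37.2%, 55.4% and 46.6% there and wild-type replicates 63.3%, 67.3% and 70.7%, the widest mutant spread at Runx2.

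The exception at Runx2 was a region 242341 bp downstream of the distal start (chromosome 17, 44571914 to 44572286). Mutant replicates had 88.4%, 91.0% and 90.7%, and wild-type replicates 86.7%, 84.3% and 94.6%. The groups overlapped, and the difference of 1.52 points (standard error 2.91, limma adjusted p = 0.624) was within the spread of the wild type.

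At Runx3, the largest loss of all 77 regions stood just inside the distal start. The region began 513 bp downstream of it (chromosome 4, 135121158 to 135121597, 13 CpGs), beyond the distal sequence shown here. Mutant replicates had levels of 45.3%, 38.5% and 41.1%, against 85.7%, 85.9% and 85.0% in wild-type replicates. Wild-type replicates lay close together, and every mutant replicate was far below them. The difference was -43.9 points (standard error 2.35, limma adjusted p = 5.97e-06), and the authors' deposited table gave a metilene q-value of 0.00062. The next region, 1371 bp downstream of the start (chromosome 4, 135122016 to 135123110, 15 CpGs), had 43.4%, 44.4% and 45.5% in mutant replicates and 75.1%, 78.5% and 70.4% in wild-type replicates. With those at 3129 bp (-21.2 points) and 9588 bp (-22.1 points), all 4 candidate regions within 10 kb downstream of the distal start were listed. The list held 33.1% of all candidate regions, and by the rule the locus begins with a listed region. Over the 4, the level was 55.2% ± 2.93 in mutant columns and 84.5% ± 0.911 in wild-type columns (SD, n = 3 each). Mutant replicates spread most at the region 9588 bp downstream (chromosome 4, 135130233 to 135130822), with 63.3%, 69.3% and 78.1%, against 91.0%, 89.8% and 96.2% in wild-type replicates.

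The proximal start of Runx3 had little methylation to lose, and it was flanked by regions that fell. The 51-base region of its promoter (chromosome 4, 135152307 to 135152357) had levels of 0.556%, 0% and 5.56% in mutant replicates and 0%, 0% and 0% in wild-type replicates. The difference of 2.04 points came from mutant replicate 3 and was not called (standard error 2.27, limma adjusted p = 0.403). A region 280 bp upstream of the start (135152089 to 135152265) had 0.727%, 1.82% and 0% in mutant replicates and 0.455%, 1.64% and 0.727% in wild-type replicates (limma adjusted p = 0.967). A further region 1889 bp upstream (135150512 to 135150656) had 0%, 2.67% and 0% in mutant replicates and 0.222%, 0% and 1.11% in wild-type replicates (limma adjusted p = 0.838). These 3 unmethylated regions overlapped between groups and were the Runx3 regions that limma did not call.

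Interleaved with them were methylated regions that were lower in the mutant. The region 588 bp upstream of the proximal start (chromosome 4, 135151502 to 135151957) had 69.6%, 61.6% and 63.4% in mutant replicates and 82.3%, 79.9% and 76.2% in wild-type replicates. The groups were separate, with a difference of -14.6 points (standard error 2.83, limma adjusted p = 0.00118). At 1057 bp upstream, a dense listed region with 10 CpGs in 136 bp (135151352 to 135151488) had 60.9% ± 3.47 in mutant columns and 85.3% ± 3.06 in wild-type columns (SD, n = 3 each). At 2161 bp upstream, another listed region (135149891 to 135150384) had 21.9% ± 2.16 in mutant columns and 47.7% ± 2.48 in wild-type columns. It retained 45.8% of the wild-type level, the lowest share among the listed Runx3 regions. On the other side, 1781 bp downstream of the start (135154326 to 135154990), levels were 30.03% ± 2.93 in mutant columns and 47.9% ± 3.15 in wild-type columns (SD, n = 3 each). Of 10 candidate regions within 5 kb of the proximal start, 7 were called lower and 2 listed. The shares over all candidate regions were 93.5% called lower and 33.1% listed.

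**Figure D2:**
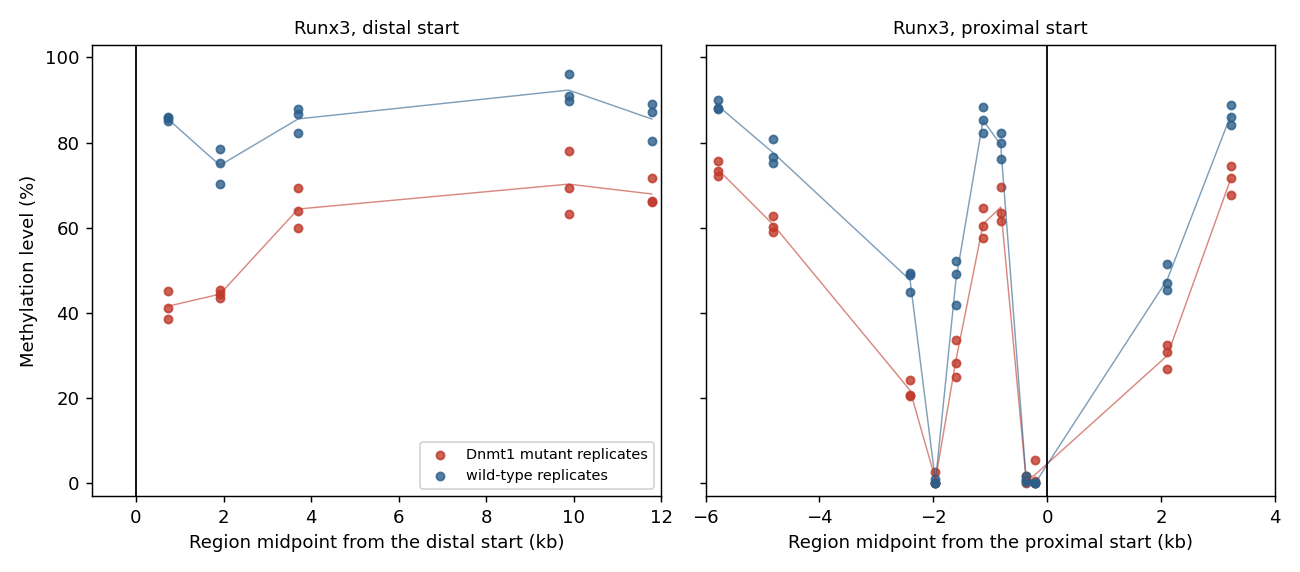
Methylation level (%) of Runx3 candidate regions in each replicate column, against the distance of the region's midpoint from the distal start (left) and from the proximal start (right), in kb. Red points are mutant replicates, blue points wild-type replicates, thin lines join the means (n = 3 each) and the black line marks the start. The widest gap in points stands right after the distal start, with 41.6% in the mutant against 85.5% in the wild type, and both genotypes are near 0 at the proximal start.

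Farther inside Runx3, 2 regions of low methylation lay 20186 and 20962 bp downstream of the distal start. The first (chromosome 4, 135140831 to 135140928) had 9.89% ± 2.19 in mutant columns and 20.1% ± 6.72 in wild-type columns, and the other (135141607 to 135142442) had 10.04% ± 2.38 in mutant columns and 17.8% ± 3.22 in wild-type columns (SD, n = 3 each). Both were called lower (limma adjusted p = 0.0177 and 0.0149), but neither call held with every replicate left out in turn. The first was not called without mutant replicate 1 (adjusted p = 0.0516), and its difference of -10.2 points became -6.39 points without wild-type replicate 1. The other was not called without wild-type replicate 1 (adjusted p = 0.0580) or 3 (adjusted p = 0.0575). Among the 8 listed regions of Runx3, the one with the most CpGs, 35, lay in the 3′ part of the gene (chromosome 4, 135165373 to 135167708). Mutant replicates had 57.6%, 58.1% and 64.2%, and wild-type replicates 79.1%, 81.9% and 81.7%. No replicates overlapped between groups, and the difference was -20.9 points (standard error 2.49, limma adjusted p = 9.88e-05). All 10 candidate regions downstream of the proximal start were called lower, with a median difference of -16.0 points. Over the whole table, 93.5% of candidate regions were called lower and the median difference was -16.6 points.

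Averaged over listed regions, the 3 genes fell to levels between 44.0% and 53.9% in the mutant, against 74.9% to 80.1% in wild-type columns. Runx1 had means of 46.6%, 50.4% and 50.8% in mutant replicates and 74.8%, 73.9% and 76.0% in wild-type replicates, a difference of -25.6 points. For Runx2 the mutant replicates had 46.2%, 45.1% and 40.7% and the wild-type replicates 78.6%, 74.9% and 74.2%, a difference of -31.9 points. For Runx3 the values were 51.5%, 54.7% and 55.6% in mutant replicates and 79.3%, 80.2% and 80.7% in wild-type replicates, a difference of -26.1 points. In each gene the groups were separate, with p = 0.1 by exact permutation (two-sided), the smallest value possible with 3 against 3. The authors listed these regions from a comparison of these same samples, so the sizes describe the selection as well as the genes. Over all candidate regions of the loci the differences were smaller, -17.2 points at Runx1, -19.7 points at Runx2 and -15.7 points at Runx3. Over the listed regions, mutant replicate 3 was the lowest at Runx2 and the highest at Runx1 and Runx3. Over all candidate regions of Runx2, mutant replicates had 60.3%, 64.9% and 62.0%, so replicate 1 was the lowest there.

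**Figure D3:**
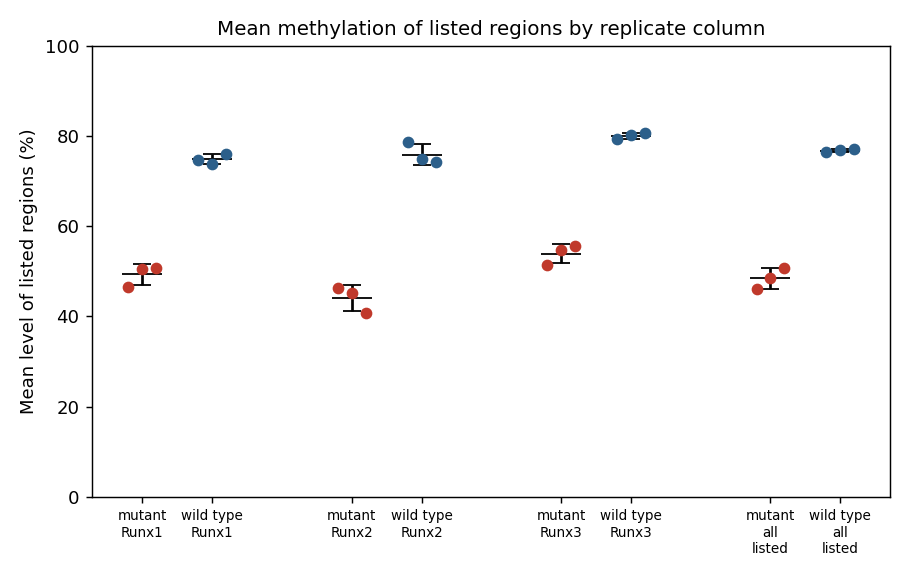
Mean methylation level (%) over the listed regions of each Runx gene and over all 35439 listed regions. Points are replicate columns, mutant (red) left of wild type (blue), and bars are mean ± SD (n = 3 each). Mutant means sit between 44.0% and 53.9% at the Runx genes and wild-type means between 74.9% and 80.1%.

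The genotype difference was not shown to be of unlike size between the 3 genes. Within columns, the Runx3 minus Runx1 level was 4.63 ± 0.319 points in mutant columns and 5.19 ± 1.02 points in wild-type columns (SD, n = 3 each), a difference of -0.563 points that was -0.883 points without wild-type replicate 1 and 0.0262 points without wild-type replicate 2 (exact permutation p = 0.6, Benjamini-Hochberg adjusted over 3 pairs of genes 0.6). The Runx2 minus Runx1 level was -5.28 ± 4.87 points in mutant columns and 1.01 ± 2.82 points in wild-type columns, a difference of -6.29 points (exact permutation p = 0.2, adjusted 0.45), which became -3.87 points without mutant replicate 3 and -2.41 points over all candidate regions of the loci. The Runx3 minus Runx2 level was 9.91 ± 4.80 points in mutant columns and 4.18 ± 3.03 points in wild-type columns, a difference of 5.73 points (exact permutation p = 0.3, adjusted 0.45), and 3.26 points without mutant replicate 3. Each gene was also taken minus the mean of all listed regions in the same column. Mutant minus wild type, this came to 2.77 points for Runx1 and 2.21 points for Runx3, a smaller loss than over the list (exact permutation p = 0.1 and adjusted p = 0.15 for each). For Runx2 it came to -3.52 points (exact permutation p = 0.4, adjusted 0.4), but to -0.710 points without mutant replicate 3, -1.99 points without wild-type replicate 1 and -5.78 points without mutant replicate 1. Over all candidate regions of the loci, against the mean of all candidate regions, the values were 0.732 points for Runx1, -1.68 for Runx2 and 2.31 for Runx3. On the logit scale, over listed regions, they were 0.158 for Runx1, -0.0239 for Runx2 and 0.0336 for Runx3. With 3 columns per genotype, none of these comparisons could reach 0.05.

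Sorted by wild-type level, most Runx regions were highly methylated, as in the table. Wild-type means were 80% or more in 51 of 77 Runx regions (66.2%, against 70.1% of all candidate regions), and there the median difference was -15.6 points in both. The mutant retained a median of 82.1% of the wild-type level in these Runx regions and of 82.6% over the table. In the 16 Runx regions with a wild-type level of 60 to 80%, the median difference was -19.7 points, against -25.4 points over the table, and the retained share 71.3% against 65.2%. In the 5 regions at 40 to 60%, it was -18.9 points, against -24.2 points over the table. Runx3 was the gene with regions under 40% in wild-type columns, 5 of 29, whereas Runx1 and Runx2 had none among 38 and 10. Regions are not replicates, and no test was made of these medians. Mutant replicates spread more than wild-type replicates within Runx regions, with median SDs of 3.69 and 2.33 points, close to the 3.75 and 2.22 points of the table. Mutant replicate 1 was the lowest in 28 of 38 regions at Runx1 (73.7%), 6 of 10 at Runx2 and 16 of 29 at Runx3 (55.2%), and in 59.7% of all candidate regions.

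**Figure D4:**
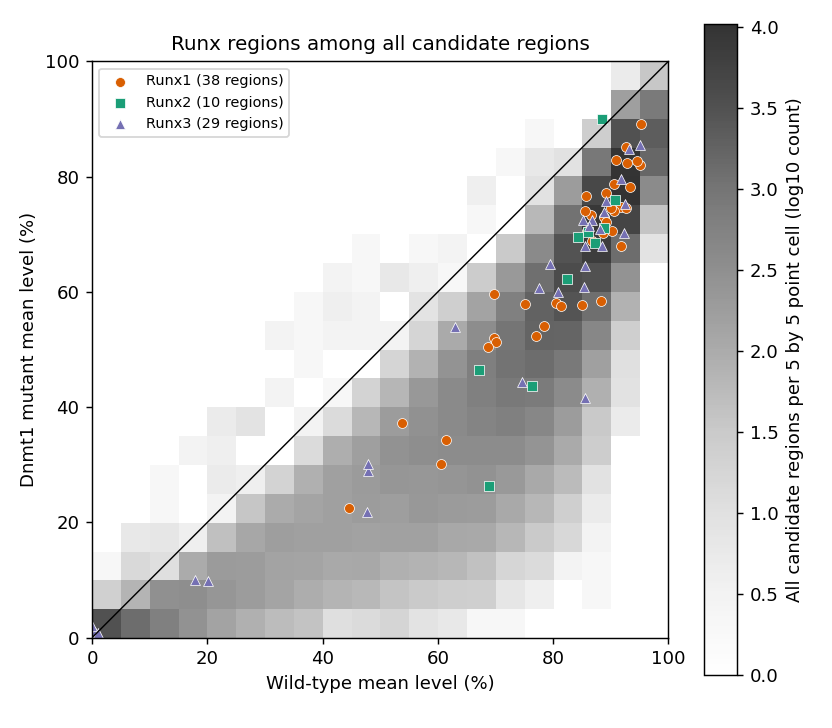
Mean methylation level (%) in the mutant (vertical axis) against the wild type (horizontal axis) for Runx1 (circles), Runx2 (squares) and Runx3 (triangles) regions, n = 3 columns per genotype, over grey cells of 5 by 5 points shaded by the log10 number of all candidate regions. The black line marks equal levels. The Runx regions follow the cloud of the table, most of them at wild-type levels of 80% or more, and 1 Runx2 region and Runx3 regions near 0 lie at the line.

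Other genes had nearly the same profile over the 6 columns. Likeness was the root mean square difference in the mean level of listed regions within 5 kb, among genes with at least 5 listed regions for Runx1, 2 for Runx2 and 4 for Runx3. Nearest to Runx1 among 1399 genes were Slc38a3, an amino acid transporter gene (0.578 points, 9 regions), Etv6, which encodes an ETS family repressor of blood progenitors (0.786 points, 11 regions), and Dexi (0.895 points, 6 regions). Nearest to Runx2 among 5193 genes were Meioc (1.30 points, 2 regions), Tmem132b (2.12 points) and the potassium channel gene Kcng4 (2.30 points). Nearest to Runx3 among 2008 genes were the dynein gene Dnah1 (0.401 points, 12 regions), the integrin gene Itga7 (0.457 points, 4 regions) and Kalrn (0.617 points, 14 regions).

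Genes that work with RUNX proteins were taken by the same rule, with listed regions within 5 kb and the candidate regions between them. Of 21900 protein-coding genes in RefSeq, 34.9% had a listed region within 5 kb, matched by symbol, and the counts of genes stand beside that share without a test. Among partners and corepressors, 4 of 10 genes had a listed region, and limma called 31 of 33 candidate regions lower, with a median difference of -17.7 points. Smad3, a transducer of TGF-β signals, held 8 listed regions at 45.6% ± 4.81 in mutant columns and 68.8% ± 2.79 in wild-type columns (SD, n = 3 each). The corepressor gene Cbfa2t3 held 3 (45.2% ± 3.25 in mutant columns and 68.9% ± 2.53 in wild-type columns), the Groucho family gene Tle3 held 2 and the Hippo pathway coactivator gene Yap1 held 1. Cbfb, the gene of the obligate partner, had none. Among factors that share sites with RUNX1 in blood progenitors, 5 of 11 genes had a listed region and 33 of 37 regions were called lower (median -18.7 points). Erg held 7 listed regions, the PU.1 gene Spi1 held 5 at 47.0% ± 4.61 in mutant columns and 75.2% ± 1.93 in wild-type columns (SD, n = 3 each), and the ETS factor genes Ets1 and Fli1 held 2 each.

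Among RUNX1 target genes of blood cells, 6 of 12 had a listed region and 20 of 22 regions were called lower (median -22.7 points). Itga2b, which encodes the platelet integrin CD41, held 5 at 52.5% ± 4.55 in mutant columns and 81.4% ± 1.42 in wild-type columns (SD, n = 3 each). Csf1r, the macrophage growth factor receptor gene, held 3 (49.1% ± 2.97 in mutant columns and 73.1% ± 2.23 in wild-type columns), and Mpo and Gfi1, a granule enzyme gene and a repressor gene of granulocytes, held 2 each. Among the osteoblast and cartilage genes linked to RUNX2, 4 of 12 had a listed region and 38 of 39 regions were called lower (median -24.8 points). The alkaline phosphatase gene Alpl held 17 of the 28 listed regions, at 51.6% ± 2.10 in mutant columns and 79.6% ± 0.290 in wild-type columns (SD, n = 3 each), the collagen gene Col1a1 held 8, the osteoblast factor gene Sp7 held 2 and the cartilage factor gene Sox9 held 1. Among the T and NK cell genes linked to RUNX3, 9 of 12 had a listed region and 53 of 53 regions were called lower (median -22.9 points). Bcl11b held 21 of the 36. Zbtb7b, which directs the CD4 T cell fate, held 4 (49.9% ± 4.41 in mutant columns and 75.0% ± 0.519 in wild-type columns), and the IL-2 receptor gene Il2rb held 3. Tbx21, which encodes T-bet, held 3 at 22.6% ± 1.70 in mutant columns and 62.1% ± 2.36 in wild-type columns (SD, n = 3 each). limma called 0 regions of the 5 lists higher at the adjusted threshold and 0 at an unadjusted p of 0.05, although 1 region of the blood progenitor factors was called higher on a logit scale. The shares called lower stand beside 93.5% of all candidate regions, and genes without a listed region contributed no region, so these medians are not set against that of the table as a result.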

How the data were processed

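DNA of 12 samples was sequenced in paired-end mode with 100 bp reads after bisulfite or enzymatic conversion, per the labels' protocols. The deposited tables give a methylation fraction per region in 6 columns, 3 per genotype, here multiplied by 100. Both kits' libraries carry the same column name, and whether they were merged is not stated. The submitters' processing notes name mm10 as the build, and metilene is named by the deposited lists, which also hold q-values and group means. In Runx regions the authors' group means differed from the column means by up to 5.85 points. The column values need not cover every CpG that the authors counted in a region. The score column that the authors deposited is the difference of their group means. No aligner or filter is stated. The deposited values carry no read counts, so depth is unknown and no interval for it is given. Coordinates are printed as deposited: at 1530 of 1530 region starts that could be checked, the first CpG lay 2 bases further on in RefSeq.

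Percent levels of all 107115 candidate regions were fitted with limma 3.58.1 (R 4.3.3) without a low-value filter, and p-values were adjusted by the Benjamini-Hochberg method. The fit was tested on simulated data. Gene means over listed regions were compared by exact two-sided permutation tests over all splits of the columns (numpy 2.4.6), and their p-values were adjusted with scipy 1.17.1. Named regions were, per gene, those with the largest and the smallest loss, the most CpGs (of listed regions, since no CpG count is tabulated for the others) and the widest mutant range, those within 1 kb of a start and those not called; other regions described were chosen after their values were seen. The Runx genes and the pathway lists were chosen with earlier results of these data known. The 4 hypermethylated regions of the authors' list held no Runx row.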

Additional observations from a re-analysis of the deposited data

How the results depend on the processing

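Of the counts, gene means and differences recomputed under the alternatives, 281 values were kept, 9 counts moved and 5 differences reversed. A kept count could still change, as from 73 to 70 Runx regions called lower without mutant replicate 1. Counts of regions called higher that stayed at 0 are among the 281. Gene means and their differences could not reach 0.05 under any alternative, so for them only the direction was compared. Requiring a loss of at least 20 points left 22 Runx regions called lower (34.4% of all candidate regions), 10 at Runx1, 4 at Runx2 and 8 at Runx3. Every candidate region of the gene span and 5 kb either side was also taken, an alternative chosen after seeing the data. It gave 14 of 15 regions called lower at Runx2, against 9 of 10 by the rule. A logit scale and a mean-variance trend each called 1 region of the blood progenitor factors higher. Over the table, regions called higher numbered 82 with the trend and 30 to 63 when each replicate was left out in turn, against 52. The Runx3 minus Runx1 difference reversed to 1.58 points over all candidate regions of the loci, 1.31 points over regions with a metilene q-value under 0.05 and 0.232 points with CpG weights, and ranged from -0.883 to 0.0262 points with each replicate left out. Runx2 against all listed regions became 1.33 points at that q-value. Among single regions, the one 280 bp upstream of the proximal Runx3 start turned to 0.0357 on the logit scale and ranged from -0.576 to 0.333 points with each replicate left out (above 0 without mutant replicate 3 or wild-type replicate 2). The Runx2 region not called ranged from -0.574 (without wild-type replicate 2) to 4.54 points, and the Runx3 region 1889 bp upstream from -0.444 (without mutant replicate 2) to 0.889 points. The cause of these changes was not tested. With each replicate left out, 70 to 73 Runx regions were called lower. Same-numbered columns correlated at 0.0372, 0.00490 and 0.04998 after removal of group means, and unlike-numbered ones at -0.0507 to 0.0117. Such values cannot tell whether same-numbered columns share a litter or a batch. A fit with the replicate block called 73 Runx regions lower.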
